A study of Mus musculus with 22 samples.

Results

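A set of 10 genes tied to p53 activity and cell cycle arrest was followed in the microglia, the brain's resident macrophages, of aged male C57BL/6J mice. They were taken by symbol from the table of read counts: Trp53, its inhibitor Mdm2, the CDK inhibitor genes Cdkn1a, Cdkn1b and Cdkn2a, and the p53 target or stress genes Ccng1, Phlda3, Trp53inp1, Zmat3 and Gadd45b. All 10 were found among 54532 genes, and all 10 were among the 16554 genes with enough counts to be tested.

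GW mice are a model of Gulf War Illness, made by daily intraperitoneal injection, for 10 days from an age of 10 weeks, of pyridostigmine bromide at 0.7 mg/kg, which inhibits acetylcholinesterase, together with the pyrethroid permethrin at 200 mg/kg. All mice were kept to an age of 17.5 months. Cannabidiol (CBD, 30 mg/kg), a cannabinoid of the hemp plant, or its vehicle was then given on each of 28 days and on alternate days (every 2 days) during 2 further weeks. Lipopolysaccharide (LPS, 0.33 mg/kg, from Escherichia coli), which activates innate immune cells, or buffered saline (PBS) was injected 24 hours before the brains were taken.

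The 22 libraries formed 6 groups. GW mice given CBD received LPS (GW-CBD-LPS, n = 4) or PBS (GW-CBD-PBS, n = 3). GW mice given the CBD vehicle received LPS (GW-Veh-LPS, n = 3) or PBS (GW-Veh-PBS, n = 4). Control mice, given vehicle in place of both the toxicants and CBD, received LPS (Ctrl-Veh-LPS, n = 4) or PBS (Ctrl-Veh-PBS, n = 4). A group of control mice given CBD was not analysed here, and CBD is compared with vehicle among GW mice. Whether a library holds the cells of 1 mouse or of several is not stated in the labels, so the p-values measure the spread between libraries, which may be technical.

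The transcription factor p53 is held low by Mdm2, a ubiquitin ligase that is itself a p53 target gene. When p53 is stabilised, for example after DNA damage, it induces Cdkn1a, whose product p21 blocks the cyclin-dependent kinases that drive entry into S phase, and further targets that act in repair, metabolism or apoptosis. Cdkn2a encodes the INK4a inhibitor of the G1 kinases and, from another first exon, ARF, which binds Mdm2. Lasting expression of these inhibitors is a hallmark of cellular senescence, and Cdkn1a can also be induced without p53.

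The start regions of the members were searched for the p53 consensus element, a palindrome of 20 bases made of 2 half-sites of 10 bases with no spacer. The 4 fixed core letters had to match and at most 2 mismatches were allowed elsewhere. The windows were RefSeq promoter sequences of GRCm38.p6, each with 250 bases before and 50 bases after a start site. Of the 10 members 8 had at least 1 window, 10 windows in all, and Trp53inp1 and Zmat3 had none.

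A match was found in 2 of these 10 windows, 1 of Cdkn1a and 1 of Ccng1, against 0.326% of 32851 windows over all genes. The 3 windows below are shown because they are those of the 2 members with a match, including the second start of Cdkn1a, which held none. Capitals mark the matching element, and all sequences run 5′ to 3′ on the gene's strand.
Cdkn1a, chr17:29090729-29091028, plus strand: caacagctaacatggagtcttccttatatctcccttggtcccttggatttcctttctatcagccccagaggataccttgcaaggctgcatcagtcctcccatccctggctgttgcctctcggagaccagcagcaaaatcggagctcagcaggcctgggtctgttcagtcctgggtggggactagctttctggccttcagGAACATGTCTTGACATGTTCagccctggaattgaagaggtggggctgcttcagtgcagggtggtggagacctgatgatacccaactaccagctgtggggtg
Cdkn1a, second start, chr17:29093519-29093818, plus strand: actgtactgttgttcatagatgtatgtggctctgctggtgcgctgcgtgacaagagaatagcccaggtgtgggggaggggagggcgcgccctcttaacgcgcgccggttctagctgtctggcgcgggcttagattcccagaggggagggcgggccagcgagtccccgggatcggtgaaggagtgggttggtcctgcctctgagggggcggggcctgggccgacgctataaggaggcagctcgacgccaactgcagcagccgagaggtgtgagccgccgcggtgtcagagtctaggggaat
Ccng1, chr11:40755237-40755536, minus strand: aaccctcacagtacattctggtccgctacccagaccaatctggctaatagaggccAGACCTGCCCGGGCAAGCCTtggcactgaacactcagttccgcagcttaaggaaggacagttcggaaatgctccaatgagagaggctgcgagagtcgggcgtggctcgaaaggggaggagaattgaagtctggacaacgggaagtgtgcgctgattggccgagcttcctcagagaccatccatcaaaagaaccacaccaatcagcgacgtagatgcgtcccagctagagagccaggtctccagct

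The element of Cdkn1a spans the bases 51 to 32 before the upstream start and has 1 mismatch. That of Ccng1 spans the bases 195 to 176 before the start and also has 1 mismatch. With 3 mismatches allowed, the windows of Trp53 and Cdkn1b also held a match, where 1.38% of all windows did. Elements outside the windows were not searched. The match describes the letters of the window, and no binding was measured in these libraries.

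Depth and identity of the libraries were checked before the genes were compared. Library totals ran from 28676930 to 40458326 counts. The 8 microglia markers summed to between 21660 and 47490 CPM (counts scaled to a common library total) with none at 0 in any library, and the sums were lower with LPS in vehicle-treated mice, at 28920 to 33900 CPM in GW-Veh-LPS against 36280 to 42410 CPM in GW-Veh-PBS, and at 21660 to 31800 CPM in Ctrl-Veh-LPS against 36190 to 47490 CPM in Ctrl-Veh-PBS. Neuron markers reached at most 6.077 CPM. A few libraries stood apart by 11 neutrophil markers, which summed to 1560 CPM in GW-Veh-PBS replicate 1, 2213 CPM in Ctrl-Veh-LPS replicate 1 and 25510 CPM in Ctrl-Veh-PBS replicate 3, against 1.296 to 319.4 CPM in the others. Member calls that rest on these 3 libraries are given with and without them.

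Trp53, the gene of p53 itself (ENSMUSG00000059552, GRCm38 chr11:69580359-69591873, plus strand), was the most abundant member per length, at a mean of 28.7 CPM per kb of exon over all libraries. CPM of single genes are scaled with TMM factors, which correct for differences in library composition. Ccng1 followed at 15.2 CPM per kb. Cdkn1a, Gadd45b and Mdm2 lay close together at 9.49, 9.47 and 9.38 CPM per kb. Trp53inp1 had 1.72, Phlda3 0.726, Cdkn1b 0.571, Zmat3 0.287 and Cdkn2a 0.101 CPM per kb.

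**Figure D1:**
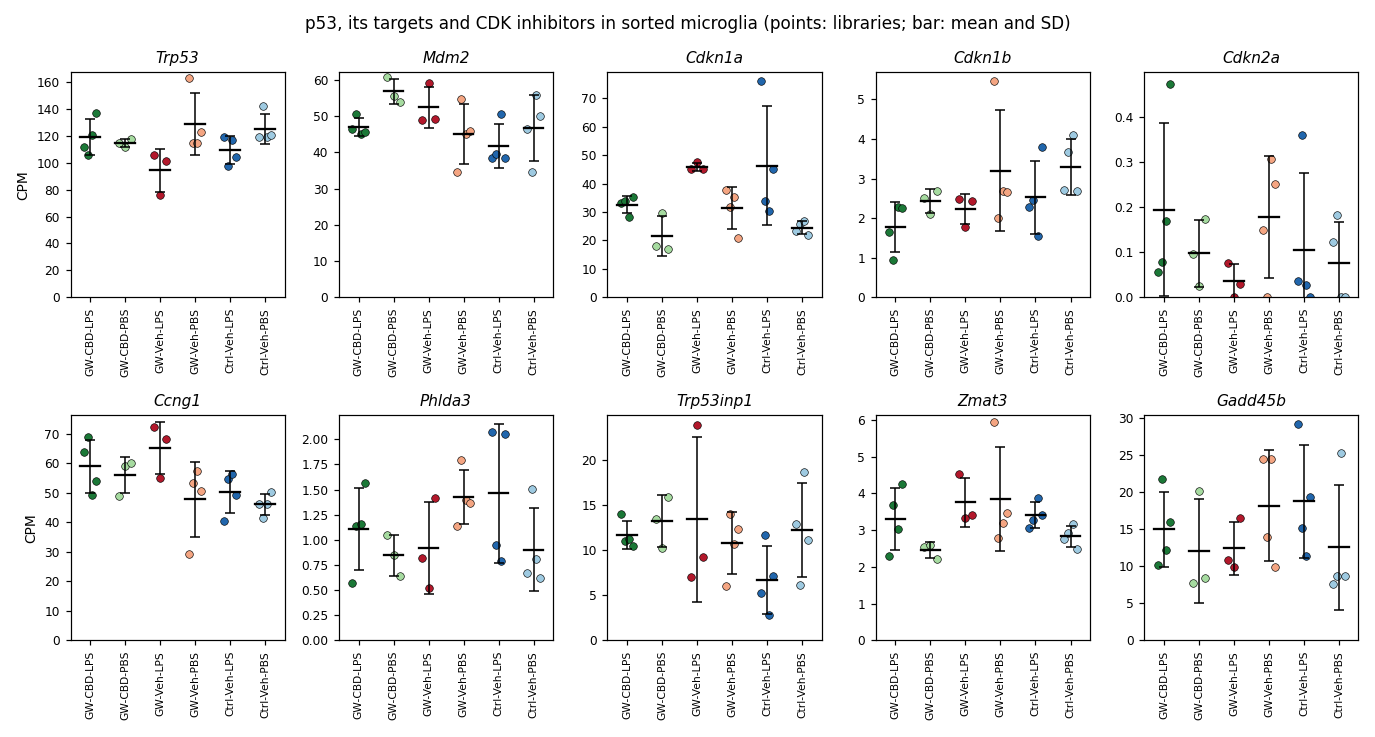
Level of each of the 10 genes (CPM, linear axis from 0) in the 6 groups; points are libraries, and the bar gives the mean and SD, cut at 0 for Cdkn2a. Cdkn1a lies at 45.0 to 47.5 CPM in GW-Veh-LPS and at 28.2 to 35.3 CPM in GW-CBD-LPS, and the highest Cdkn2a value is 0.473 CPM.

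Cdkn1a, the gene of p21 (ENSMUSG00000023067, chr17:29090976-29100727, plus strand), was the member that rose with LPS in control mice. It had 76.1, 33.7, 30.2 and 45.2 CPM in Ctrl-Veh-LPS, against 23.3, 25.9, 26.7 and 21.8 CPM in Ctrl-Veh-PBS. All LPS libraries lay above all PBS libraries, and replicate 1 of Ctrl-Veh-LPS was the highest of the 22. The means were 46.3 ± 20.9 CPM in Ctrl-Veh-LPS and 24.4 ± 2.29 CPM in Ctrl-Veh-PBS (SD, n = 4 each), and the log2 fold change was 0.92 ± 0.24 (SE, edgeR quasi-likelihood test, Benjamini-Hochberg adjusted p = 0.00891). Without Ctrl-Veh-LPS replicate 1 the log2 fold change was 0.57 and the call was lost (edgeR adjusted p = 0.059), and without the 3 libraries rich in neutrophil markers it was 0.60 (edgeR adjusted p = 0.0638). Ctrl-Veh-LPS replicate 1 also had the lowest microglia marker sum, 21660 CPM, and 2213 CPM of neutrophil markers. The microglia sums were lower in every Ctrl-Veh-LPS library than in any Ctrl-Veh-PBS library. So were the oligodendrocyte sums, at 234.5 to 332 CPM against 375.9 to 574.3 CPM, and the endothelial sums, at 13.32 to 29.33 CPM against 35.71 to 59.96 CPM. The sums of the other marker lists overlapped. The part of any of these markers in the result was not tested. In bulk RNA, fewer cells of a type and less RNA per cell cannot be told apart.

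In GW mice given vehicle, Cdkn1a was again higher in every LPS library than in any PBS library, but the difference did not pass. It had 45.0, 47.5 and 45.3 CPM in GW-Veh-LPS, against 37.7, 31.6, 35.4 and 21.0 CPM in GW-Veh-PBS. The LPS libraries lay close together, while the PBS libraries were spread over a wider range. The log2 fold change was 0.55 ± 0.25 (edgeR adjusted p = 0.188).

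With CBD, Cdkn1a had 33.2, 33.7, 28.2 and 35.3 CPM in GW-CBD-LPS, against 18.1, 29.7 and 16.9 CPM in GW-CBD-PBS. The ranges overlapped through replicate 3 of GW-CBD-PBS, and the log2 fold change of 0.60 ± 0.26 did not pass (edgeR adjusted p = 0.394). The LPS effect was not shown to differ between the groups, since neither the interaction of GW and LPS (-0.37 ± 0.35, edgeR adjusted p = 0.645) nor that of CBD and LPS (0.05 ± 0.36, edgeR adjusted p = 0.962) passed.

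Set against vehicle, CBD went with lower Cdkn1a under both injections, without a call in either. Under LPS every GW-CBD-LPS library (28.2 to 35.3 CPM) lay below every GW-Veh-LPS library (45.0 to 47.5 CPM), with a log2 fold change of -0.49 ± 0.25 (edgeR adjusted p = 0.39). Under PBS the means were 21.6 ± 7.06 CPM in GW-CBD-PBS (n = 3) and 31.4 ± 7.42 CPM in GW-Veh-PBS (n = 4), with a log2 fold change of -0.54 ± 0.26 (edgeR adjusted p = 0.524). The toxicant exposure alone gave 0.36 ± 0.24 under PBS, GW-Veh-PBS against Ctrl-Veh-PBS (edgeR adjusted p = 1), and -0.01 ± 0.25 under LPS (edgeR adjusted p = 0.989). The value under LPS had no stable sign: it was 0.34 without Ctrl-Veh-LPS replicate 1 and 0.33 without the 3 libraries rich in neutrophil markers. A gene model of the class still to be experimentally verified overlaps Cdkn1a on the opposite strand. How strand was treated in the counting is not given in the sources used here, which makes the share of reads from each uncertain.

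Trp53 fell with LPS in GW mice given vehicle. It had 106, 76.0 and 101 CPM in GW-Veh-LPS, against 163, 115, 115 and 123 CPM in GW-Veh-PBS. The groups did not overlap, with GW-Veh-LPS replicate 3 the lowest and GW-Veh-PBS replicate 1 the highest of all 22 libraries. The means were 94.1 ± 15.8 CPM in GW-Veh-LPS (n = 3) and 129 ± 22.9 CPM in GW-Veh-PBS (n = 4), and the log2 fold change was -0.45 ± 0.14 (edgeR adjusted p = 0.0466). The call lay at the threshold: DESeq2 gave an adjusted p of 0.0139, while a fit of these groups alone gave 0.217 and a fit without a filter on low counts 0.0907. Leaving out GW-Veh-LPS replicate 3 gave -0.32 (edgeR adjusted p = 0.21), GW-Veh-PBS replicate 1 gave -0.34 (0.144), GW-Veh-LPS replicate 4 gave -0.52 (0.0753) and GW-Veh-PBS replicate 4 gave -0.48 (0.0688), and none of these passed. Without the 3 libraries rich in neutrophil markers it was -0.34 (edgeR adjusted p = 0.153). Markers of border-associated macrophages moved in the same comparison, with 5 genes summing to 306.1 to 496.5 CPM in GW-Veh-LPS against 128.8 to 240.7 CPM in GW-Veh-PBS. So did 6 erythroid genes, at 65.86 to 137.2 CPM against 259.1 to 1568 CPM. Endothelial markers were lower too, at 14.64 to 22.22 CPM against 25.67 to 46.52 CPM. Oligodendrocyte markers had 244.2 to 278 CPM against 281.1 to 448.6 CPM, and neuron markers 1.579 to 3.744 CPM against 3.78 to 6.077 CPM. The neutrophil, monocyte, T and NK cell, B cell and astrocyte sums overlapped. The part of these markers in the result was not tested.

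In the other groups Trp53 did not pass. It had 119, 97.5, 117 and 104 CPM in Ctrl-Veh-LPS, against 119, 142, 119 and 121 CPM in Ctrl-Veh-PBS, with a log2 fold change of -0.20 ± 0.13 (edgeR adjusted p = 0.305). With CBD the values were 112, 106, 121 and 137 CPM in GW-CBD-LPS, against 115, 112 and 118 CPM in GW-CBD-PBS, with a log2 fold change of 0.05 ± 0.14 (edgeR adjusted p = 0.944). Trp53 was thus at 119 ± 13.9 CPM in GW-CBD-LPS and 94.1 ± 15.8 CPM in GW-Veh-LPS, a log2 fold change of 0.34 ± 0.14 (edgeR adjusted p = 0.247), and the interaction of CBD and LPS was 0.50 ± 0.20 (edgeR adjusted p = 0.252), so neither passed. Under PBS it was -0.16 ± 0.14 for CBD against vehicle (edgeR adjusted p = 0.666) and 0.04 ± 0.13 for GW against control (edgeR adjusted p = 1). For GW against control under LPS it was -0.22 ± 0.14 (edgeR adjusted p = 0.466).

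Mdm2 (ENSMUSG00000020184, chr10:117688875-117710758, minus strand) ran from 34.5 to 60.8 CPM, a ratio of 1.76 between its highest and lowest library, and passed in no comparison. It averaged 47.0 ± 2.56 CPM in GW-CBD-LPS, 56.8 ± 3.54 CPM in GW-CBD-PBS, 52.4 ± 5.72 CPM in GW-Veh-LPS, 45.1 ± 8.19 CPM in GW-Veh-PBS, 41.7 ± 6.02 CPM in Ctrl-Veh-LPS and 46.7 ± 9.01 CPM in Ctrl-Veh-PBS. Ranked by mean, the order was GW-CBD-PBS, GW-Veh-LPS, GW-CBD-LPS, Ctrl-Veh-PBS, GW-Veh-PBS and Ctrl-Veh-LPS, and the ranges of neighbours overlapped. Every GW-CBD-LPS library (45.1 to 50.7 CPM) lay below every GW-CBD-PBS library (54.0 to 60.8 CPM), with a log2 fold change of -0.27 ± 0.16 (edgeR adjusted p = 0.55). CBD against vehicle under PBS gave 0.33 ± 0.16 (edgeR adjusted p = 0.524), GW against control under LPS 0.33 ± 0.16 (edgeR adjusted p = 0.364), and the interaction of CBD and LPS -0.49 ± 0.22 (edgeR adjusted p = 0.304).

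The other CDK inhibitors were scarce. Cdkn1b, the gene of p27, which holds cells in quiescence (ENSMUSG00000003031, chr6:134920401-134925513, plus strand), had 0.936 to 5.46 CPM. Its mean was lower with LPS in each setting, at 1.79 ± 0.635 CPM in GW-CBD-LPS against 2.43 ± 0.304 CPM in GW-CBD-PBS, at 2.23 ± 0.39 CPM in GW-Veh-LPS against 3.20 ± 1.54 CPM in GW-Veh-PBS, and at 2.52 ± 0.929 CPM in Ctrl-Veh-LPS against 3.29 ± 0.705 CPM in Ctrl-Veh-PBS. The ranges overlapped in all 3 pairs, and the log2 fold changes of -0.45 ± 0.36, -0.52 ± 0.36 and -0.38 ± 0.33 did not pass (edgeR adjusted p = 0.708, 0.41 and 0.451).

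Cdkn2a, the classical senescence marker (ENSMUSG00000044303, chr4:89274471-89294653, minus strand), was barely detected. It held 90 counts over all 22 libraries, from 0 to 13 in a library, and 5 libraries had none. A count of 0 at these depths allows up to 0.0899 CPM in the shallowest of those 5 (3 counts of its total), for counting error only. The highest values were 0.473 CPM in GW-CBD-LPS replicate 4 and 0.361 CPM in Ctrl-Veh-LPS replicate 2, each from 13 counts, and the groups overlapped in every comparison. The gene row joins the INK4a and ARF transcripts, which cannot be told apart here, and no difference between groups was detectable at this depth.

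Among the p53 targets, Ccng1, the gene of cyclin G1, which recruits a phosphatase to Mdm2 (ENSMUSG00000020326, chr11:40748552-40755311, minus strand), was highest in GW-Veh-LPS. It had 72.2, 55.1 and 68.1 CPM there, against 29.3, 53.4, 57.5 and 50.7 CPM in GW-Veh-PBS. The groups overlapped by 1 PBS library, and the log2 fold change of 0.45 ± 0.18 did not pass (edgeR adjusted p = 0.133). It ran from 0.26 to 0.55 when 1 library was left out. The lowest PBS value, 29.3 CPM, was that of replicate 1, 1 of the 3 libraries rich in neutrophil markers. The log2 fold change with LPS was 0.12 ± 0.17 in control mice and 0.07 ± 0.19 with CBD (edgeR adjusted p = 0.661 and 0.937). The log2 fold changes of Cdkn1a and Ccng1 with LPS were above 0 in all 3 settings, but 1 of these 6 values passed. Those of Ccng1 in control mice and with CBD were smaller than their SE. The part of the p53 elements in these values was not tested.

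Trp53inp1, the gene of a nuclear protein that promotes p53 activity and autophagy (ENSMUSG00000028211, chr4:11156431-11174379, plus strand), had a ratio of 8.71 between its highest and lowest library. It had 5.23, 11.7, 2.75 and 7.16 CPM in Ctrl-Veh-LPS, against 12.9, 6.13, 18.7 and 11.1 CPM in Ctrl-Veh-PBS. The ranges overlapped through replicate 2 of each group, and the log2 fold change of -0.87 ± 0.41 did not pass (edgeR adjusted p = 0.14). When 1 library was left out, it ran from -1.28 to -0.62. The value of -1.28 ± 0.42 was that without Ctrl-Veh-LPS replicate 2, and it passed (edgeR adjusted p = 0.0371). The highest PBS value, 18.7 CPM, was that of Ctrl-Veh-PBS replicate 3, with 25510 CPM of neutrophil markers, whose part was not tested. In GW-Veh-LPS it averaged 13.4 ± 9.18 CPM (n = 3), against 6.70 ± 3.77 CPM in Ctrl-Veh-LPS (n = 4), a log2 fold change of 1.00 ± 0.43 (edgeR adjusted p = 0.344). GW-Veh-LPS replicate 3, at 23.9 CPM, was the highest of all libraries, and without it the log2 fold change was 0.30. The interaction of GW and LPS, 1.18 ± 0.59, did not pass (edgeR adjusted p = 0.407).

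Zmat3, the gene of an RNA-binding zinc finger protein that acts in p53-dependent growth control (ENSMUSG00000027663, chr3:32334792-32366014, minus strand), was low, at 2.20 to 5.94 CPM. It had 2.55, 2.60 and 2.20 CPM in GW-CBD-PBS, against 5.94, 2.79, 3.19 and 3.47 CPM in GW-Veh-PBS. Every CBD library lay below every vehicle library, and the log2 fold change of -0.65 ± 0.26 did not pass (edgeR adjusted p = 0.524). It was -0.36 without GW-Veh-PBS replicate 1, the highest vehicle library and 1 of the 3 rich in neutrophil markers. Phlda3, the gene of a pleckstrin homology domain protein that restrains Akt (ENSMUSG00000041801, chr1:135766119-135769136, plus strand), showed the same order in this pair, with 0.636 to 1.05 CPM in GW-CBD-PBS and 1.14 to 1.79 CPM in GW-Veh-PBS (-0.75 ± 0.46, edgeR adjusted p = 0.577). Its counts were 18 to 64 in a library. With LPS its log2 fold change was 0.69 ± 0.42 in control mice, -0.63 ± 0.45 in GW mice given vehicle and 0.39 ± 0.45 with CBD (edgeR adjusted p = 0.258, 0.423 and 0.822). The interaction of GW and LPS for Phlda3, -1.33 ± 0.62, did not pass either (edgeR adjusted p = 0.387).

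Gadd45b, a stress-induced growth arrest gene that also responds to NF-kB (ENSMUSG00000015312, chr10:80930073-80932204, plus strand), differed more between libraries of a group than between groups. It ranged from 11.3 to 29.1 CPM in Ctrl-Veh-LPS and from 7.58 to 25.2 CPM in Ctrl-Veh-PBS, with a log2 fold change of 0.57 ± 0.42 (edgeR adjusted p = 0.355). The highest Ctrl-Veh-PBS value belonged to replicate 3, the library richest in neutrophil markers, and without that library the log2 fold change was 1.12 ± 0.38 and passed (edgeR adjusted p = 0.0481). The part of neutrophil RNA in this difference was not tested. In GW mice given vehicle the log2 fold change was -0.55 ± 0.45 and with CBD 0.31 ± 0.45 (edgeR adjusted p = 0.49 and 0.861).

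**Figure D2:**
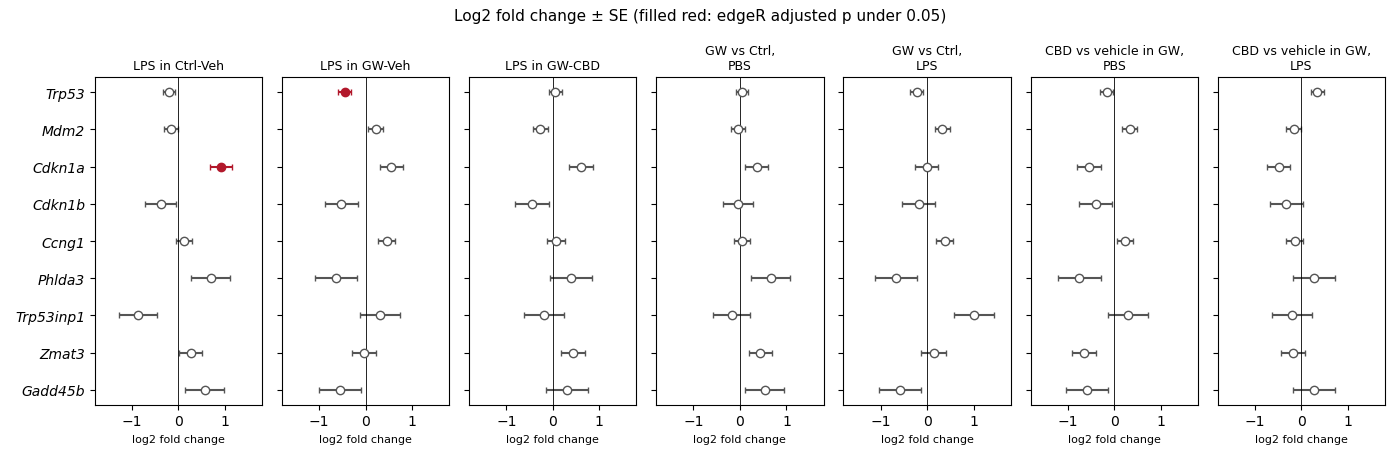
Log2 fold change (x axis, bar: SE) of 9 of the 10 genes in 7 comparisons, each as the first-named group over the second and each LPS panel as LPS over PBS; filled red points passed the edgeR test. Cdkn1a with LPS in control mice (0.92) and Trp53 with LPS in GW mice given vehicle (-0.45) are the filled points, and Cdkn2a is left out because of its low counts.

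The calls were set beside the share over all genes tested. For LPS in control mice 1 of 10 members passed, against 20.4% of all 16554 genes. For LPS in GW mice given vehicle it was 1 of 10, against 9.53%, and for LPS in CBD-treated GW mice 0 of 10, against 0.417%. CBD against vehicle under LPS called 0 of 10 members, against 2.31% of all genes. In each of these 2 comparisons 1 member had an unadjusted p under 0.05, where 1821 and 2383 of all 16554 genes did. DESeq2 called 0 members in either, and 342 and 883 genes in all. GW against control under PBS or LPS and CBD against vehicle under PBS called 0.0% of all genes with edgeR, the members included. At an unadjusted p under 0.05 these 3 comparisons held 621, 2267 and 1569 genes, of which 0, 2 and 3 were members, and DESeq2 called 0, 135 and 0 genes.

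The interaction of GW and LPS called 0.0% and that of CBD and LPS 0.0181% of all genes, with 0 of 10 members in each. At an unadjusted p under 0.05 they held 2099 and 2540 genes, with 1 and 2 members, and DESeq2 called 57 and 378 genes. No member passed in DESeq2 beyond Cdkn1a with LPS in control mice and Trp53 with LPS in GW mice given vehicle.

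Ranges that did not overlap were counted the same way. With LPS this held for 1 member in control mice, against 23.0% of all genes, for 2 in GW mice given vehicle, against 19.6%, and for 1 in CBD-treated GW mice, against 14.2%. CBD separated the ranges of 2 members under PBS, against 8.19%, and of 1 member under LPS, against 12.8%. No member's ranges were separate between GW and control mice, where 2.07% of all genes were under PBS and 12.5% under LPS. The median log2 fold change of the 10 members was 0.19 with LPS in control mice, against -0.02 for all genes, -0.24 in GW mice given vehicle, against -0.04, and 0.19 in CBD-treated GW mice, against 0.00. For CBD against vehicle it was -0.47 under PBS, against -0.03, and -0.15 under LPS, against 0.01. For GW against control it was 0.20 under PBS, against 0.02, and -0.10 under LPS, against -0.01.

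Lists of further genes of the pathway were chosen with earlier results of these data known, so they do not stand as independent evidence of direction. Of 39 further p53 target genes 38 were tested, and LPS in control mice raised 5 of them, where 10.8% of all genes rose, and lowered 7, where 9.62% fell. Aen, an apoptosis-enhancing nuclease, rose to 36.2 ± 8.65 CPM in Ctrl-Veh-LPS, against 18.2 ± 2.04 CPM in Ctrl-Veh-PBS (log2 fold change 0.99 ± 0.14, edgeR adjusted p = 5.97e-05). Ddit4, an inhibitor of mTOR signalling that also responds to glucocorticoids and hypoxia, rose by 4.05 ± 0.69 on the log2 scale (edgeR adjusted p = 0.000282). Cd80, a co-stimulatory ligand, fell by 0.88 ± 0.13 (edgeR adjusted p = 5.74e-05).

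The remaining calls of that list in control mice were Tigar, Plk3 and Dcxr among the higher and Sesn1, Bbc3, Ephx1, Abhd4, Ak1 and Perp among the lower genes. Bbc3 encodes the apoptosis effector PUMA and Sesn1 a stress-induced inhibitor of mTOR signalling, both classical p53 targets. The list median was 0.00, against -0.02 for all genes. The count of lower genes was 4 without Ctrl-Veh-LPS replicate 1 or 3, or Ctrl-Veh-PBS replicate 2 or 4, and that of higher genes was 8 without Ctrl-Veh-LPS replicate 2. Without the 3 libraries rich in neutrophil markers 5 were higher and 4 lower.

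In GW mice given vehicle, LPS raised 3 of the 38 targets (Aen, Tigar and Sesn2), where 4.45% of all genes rose, and lowered 4 (Cd80, Ephx1, Bbc3 and Ak1), where 5.07% fell. Aen rose to 35.2 ± 5.02 CPM in GW-Veh-LPS, against 19.0 ± 0.739 CPM in GW-Veh-PBS (0.89 ± 0.15, edgeR adjusted p = 0.00106), and Tigar, a regulator of glycolysis, rose by 0.92 ± 0.21 (edgeR adjusted p = 0.00857), a call lost without GW-Veh-LPS replicate 3. Cd80 fell by 0.84 ± 0.14 (edgeR adjusted p = 0.000732). When 1 library was left out, the list held 1 to 5 higher and 1 to 4 lower genes: 1 higher without GW-Veh-LPS replicate 3, 5 higher without GW-Veh-PBS replicate 2, 1 lower without GW-Veh-LPS replicate 4 and 2 lower without GW-Veh-LPS replicate 2. It held 2 higher without GW-Veh-LPS replicate 4 or GW-Veh-PBS replicate 1, and 2 higher and 4 lower without the 3 libraries rich in neutrophil markers. In CBD-treated GW mice LPS changed none of the 38 by edgeR, where 0.393% of all genes rose and 0.0242% fell. There 7 of the 38 had an unadjusted p under 0.05, where 1821 of all 16554 genes did. DESeq2 called 1 lower, where it called 52 of 13866 genes lower. Without GW-CBD-LPS replicate 3 edgeR called 1 lower, where 62 of 16489 genes fell.

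CBD under LPS lowered 2 of the targets, where 1.24% of all genes fell, and raised 1, where 1.06% rose. Aen had 17.7, 21.0, 17.9 and 16.7 CPM in GW-CBD-LPS, against 31.1, 40.8 and 33.8 CPM in GW-Veh-LPS. Every CBD library was at the level of the PBS libraries, which ran from 15.4 to 21.5 CPM over the 3 PBS groups. The log2 fold change was -0.94 ± 0.15 (edgeR adjusted p = 0.00255), and the call was kept when any 1 library was left out. In a fit of these groups alone, which called 0 genes in all and 2047 at an unadjusted p under 0.05, it was lost.

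Ddit4 had 3.70, 3.77, 4.38 and 4.80 CPM in GW-CBD-LPS, against 14.1, 70.4 and 42.8 CPM in GW-Veh-LPS (-3.35 ± 0.69, edgeR adjusted p = 0.0108). The groups did not overlap, but the vehicle libraries differed widely among themselves, and the call was lost without GW-Veh-LPS replicate 3. Ak1, an adenylate kinase gene, was the target that rose, to 146 ± 19.6 CPM in GW-CBD-LPS, against 76.0 ± 37.5 CPM in GW-Veh-LPS (0.94 ± 0.22, edgeR adjusted p = 0.0248). Its call was lost without any 1 of 5 libraries, replicate 3 or 4 of GW-Veh-LPS or replicate 1, 3 or 4 of GW-CBD-LPS. Without GW-Veh-LPS replicate 3 the list held 1 lower gene, and without the 3 libraries rich in neutrophil markers 2 were higher and 3 lower. DESeq2 called 4 higher and 3 lower, where it called 519 of 15488 genes higher and 364 lower. The microglia markers summed to 35620 to 43890 CPM in GW-CBD-LPS and 28920 to 33900 CPM in GW-Veh-LPS, and the border-associated macrophage markers to 182.8 to 343.5 CPM and 306.1 to 496.5 CPM in the same groups. Between these groups the endothelial and oligodendrocyte sums were also higher in every CBD library, and the neutrophil and monocyte sums lower. The part of any of these markers in these results was not tested.

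The difference in LPS response between CBD and vehicle was tested for the same genes by the interaction of CBD and LPS. It was -1.04 ± 0.22 for Aen (edgeR adjusted p = 0.0617), -1.93 ± 0.94 for Ddit4 (edgeR adjusted p = 0.332) and -1.11 ± 0.30 for Tigar (edgeR adjusted p = 0.115), so none passed. Tigar under LPS was -0.78 ± 0.21 for CBD against vehicle and did not pass (edgeR adjusted p = 0.0504).

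**Figure D3:**
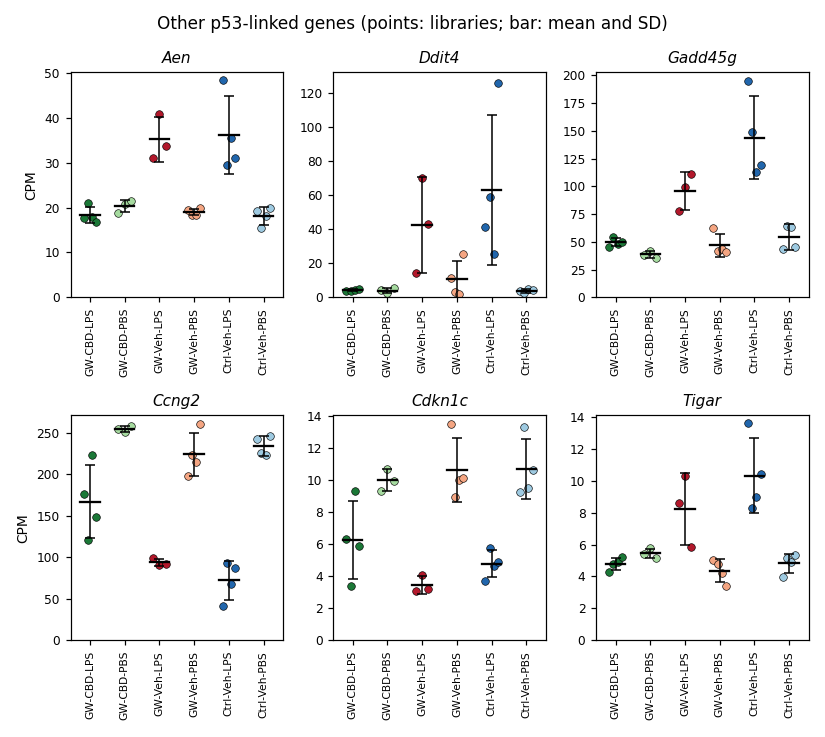
Level of 6 further genes of the pathway (CPM, linear axis from 0) in the 6 groups; points are libraries, and the bar gives the mean and SD. Aen lies at 16.7 to 21.0 CPM in GW-CBD-LPS and at 31.1 to 40.8 CPM in GW-Veh-LPS, and Ccng2 at 121 to 223 CPM and 90.3 to 98.8 CPM in the same groups.

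The remaining CDK inhibitor and Gadd45 genes moved in both directions. Of 6 tested, 1 rose and 1 fell with LPS in control mice and also in GW mice given vehicle, and the genes were Gadd45g and Cdkn1c in each. Of all genes, 10.8% rose and 9.62% fell in control mice, and 4.45% rose and 5.07% fell in GW mice given vehicle. Gadd45g, a growth arrest gene like Gadd45b, rose by 1.41 ± 0.18 in control mice (edgeR adjusted p = 2.15e-05) and by 1.03 ± 0.19 in GW mice given vehicle (edgeR adjusted p = 0.00222). Cdkn1c, the gene of the CDK inhibitor p57, fell by 1.16 ± 0.23 (edgeR adjusted p = 0.00136) and by 1.62 ± 0.26 (edgeR adjusted p = 0.000623).

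CBD lowered Gadd45g under LPS, the 1 gene of these 6 that passed, where 1.24% of all genes fell. It had 45.8, 54.3, 47.9 and 49.7 CPM in GW-CBD-LPS, against 77.4, 99.1 and 111 CPM in GW-Veh-LPS. The groups did not overlap, and the log2 fold change was -0.96 ± 0.19 (edgeR adjusted p = 0.0101), a call lost without GW-Veh-LPS replicate 3 or 4. For Cdkn1c the log2 fold change was 0.85 ± 0.26 (edgeR adjusted p = 0.0895). Without GW-CBD-LPS replicate 2 the list held 2 higher genes for CBD under LPS, and without Ctrl-Veh-PBS replicate 3 it held 2 higher genes for LPS in control mice. The interactions of CBD and LPS, -0.68 ± 0.28 for Gadd45g and 0.94 ± 0.36 for Cdkn1c, did not pass (edgeR adjusted p = 0.265 and 0.243).

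Of the 21 p53 family members and regulators 19 were tested, and 1 rose and 1 fell with LPS in control mice, where 10.8% of all genes rose and 9.62% fell. Ccng2, an atypical cyclin gene linked to quiescence, fell by 1.70 ± 0.20 in control mice (edgeR adjusted p = 6.49e-06) and by 1.26 ± 0.21 in GW mice given vehicle (edgeR adjusted p = 0.000913). Trp53rkb, a p53-related kinase gene, rose by 0.75 ± 0.21 in control mice (edgeR adjusted p = 0.0168), a call lost without Ctrl-Veh-LPS replicate 1. In GW mice given vehicle, where 4.45% of all genes rose and 5.07% fell, 1 regulator fell and 2 rose, Usp7, a deubiquitinase of p53 and Mdm2 (1.11 ± 0.27, edgeR adjusted p = 0.0145), and Chek1, a checkpoint kinase (2.52 ± 0.67, edgeR adjusted p = 0.021). The call of Usp7 was lost without GW-Veh-LPS replicate 3, and that of Chek1 without GW-Veh-LPS replicate 2 or 4 or GW-Veh-PBS replicate 1 or 3. Without GW-Veh-PBS replicate 2 the list held 4 higher genes, and without the 3 libraries rich in neutrophil markers 1. The list median there was 0.35, against -0.04 for all genes.

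With CBD under LPS, Ccng2 was the 1 regulator that rose, where 1.06% of all genes rose. It had 176, 121, 223 and 148 CPM in GW-CBD-LPS, against 98.8, 90.3 and 92.0 CPM in GW-Veh-LPS. The CBD libraries were all higher and more spread out, and the log2 fold change was 0.84 ± 0.21 (edgeR adjusted p = 0.0366), a call lost without any 1 of 5 libraries, all 3 of GW-Veh-LPS and replicates 1 and 3 of GW-CBD-LPS. The interaction of CBD and LPS was 0.65 ± 0.29 (edgeR adjusted p = 0.298).

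Genes of the cell cycle machinery that these inhibitors act on were then counted. Of 15 G1 cyclins, CDKs and pocket proteins, 0 rose and 1 fell with LPS in control mice, where 10.8% of all genes rose and 9.62% fell. The gene was E2f3, a transcription factor of S phase entry (-0.50 ± 0.16, edgeR adjusted p = 0.0282). That call was lost without Ctrl-Veh-LPS replicate 4 or Ctrl-Veh-PBS replicate 1 or 4, and the list held 3 lower genes without Ctrl-Veh-LPS replicate 3 and 2 without Ctrl-Veh-PBS replicate 2. None passed in GW mice given vehicle, by edgeR, DESeq2 or at an unadjusted p under 0.05. With CBD 1 rose with LPS, where 0.393% of all genes rose. This was Ccne1, the gene of cyclin E1, which drives S phase entry, at 9.68 ± 5.48 CPM in GW-CBD-LPS (n = 4) against 0.701 ± 0.237 CPM in GW-CBD-PBS (n = 3; log2 fold change 3.79 ± 0.81, edgeR adjusted p = 0.0475). CBD against vehicle under LPS, where 1.06% of all genes rose, raised 2, Ccne2 and Ccne1, both by 3.10 on the log2 scale (SE 0.64 and 0.78, edgeR adjusted p = 0.011 and 0.037).

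Of 16 proliferation markers, 4 fell with LPS in control mice, Ccnb1, Bub1, Ccnb2 and Top2a, where 9.62% of all genes fell. In GW mice given vehicle 2 rose, Mcm2 and Mcm6, where 4.45% rose. The means of Mcm2 and Mcm6 were also higher with LPS in control mice, without a call. They were 41.0 CPM in Ctrl-Veh-LPS against 19.0 CPM in Ctrl-Veh-PBS, and 55.3 CPM against 32.9 CPM. Those of Ccnb1, Bub1 and Ccnb2 were also lower with LPS in GW mice given vehicle, without a call. They were 2.15 CPM in GW-Veh-LPS against 2.76 CPM in GW-Veh-PBS, 0.558 CPM against 1.28 CPM, and 1.85 CPM against 3.75 CPM. In CBD-treated GW mice 4 rose with LPS, against 0.393% of all genes. CBD against vehicle under LPS raised 2, Tk1 and Cdk1, against 1.06%. Mcm7, a subunit of the replicative helicase, was at 102 ± 42.5 CPM in GW-CBD-LPS, against 25.2 ± 1.03 CPM in GW-CBD-PBS (2.02 ± 0.36, edgeR adjusted p = 0.0201), and Pcna, the sliding clamp and a p53 target, at 122 ± 43.1 CPM in GW-CBD-LPS against 49.6 ± 7.05 CPM in GW-CBD-PBS (1.30 ± 0.25, edgeR adjusted p = 0.0388). Tk1, the gene of thymidine kinase 1, rose by 2.99 ± 0.59 with CBD under LPS (edgeR adjusted p = 0.00862), and its interaction of CBD and LPS, 3.81 ± 0.80, did not pass (edgeR adjusted p = 0.0654). The list median was -1.02 with LPS in control mice and -0.65 in GW mice given vehicle, against -0.02 and -0.04 for all genes. It was 1.77 with LPS in CBD-treated GW mice and 1.73 for CBD under LPS, against 0.00 and 0.01.

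These counts moved with single libraries. In CBD-treated GW mice the LPS calls ran from 0 to 7 proliferation markers and from 0 to 4 G1 genes when 1 library was left out, and those of Mcm7, Tk1 and Ccne1 were lost without GW-CBD-LPS replicate 1, 2 or 4 or any GW-CBD-PBS library. That of Pcna was lost without GW-CBD-LPS replicate 1 or 4 or any GW-CBD-PBS library. The highest counts, 7 and 4, were those without GW-CBD-LPS replicate 3. For CBD against vehicle under LPS they ran from 0 to 4 proliferation markers and from 0 to 2 G1 genes, with 0 of both without GW-Veh-LPS replicate 3. The calls of Ccne1 and Cdk1 there were lost without any GW-Veh-LPS library or GW-CBD-LPS replicate 1, 3 or 4, that of Ccne2 without GW-Veh-LPS replicate 3 or 4, and that of Tk1 without GW-Veh-LPS replicate 3. The rises of Mcm2 and Mcm6 were lost without GW-Veh-LPS replicate 2 or 4 or GW-Veh-PBS replicate 1, 3 or 4, and 4 markers rose without GW-Veh-LPS replicate 3. Without the 3 libraries rich in neutrophil markers 7 proliferation markers rose with LPS in CBD-treated GW mice, 8 with CBD under LPS, 1 fell with LPS in control mice, and 0 changed in GW mice given vehicle. In control mice 0 fell without Ctrl-Veh-PBS replicate 3, the library with 25510 CPM of neutrophil markers, whose part in the result was not tested. There 2 fell without Ctrl-Veh-LPS replicate 2 or 3, and 7 without Ctrl-Veh-PBS replicate 2 or 4. DESeq2 called 7 proliferation markers lower with LPS in control mice, where it called 2138 of 17110 genes lower. It called 9 higher with LPS in CBD-treated GW mice, where 290 of 13866 genes were higher. With CBD under LPS it called 8 higher, where 519 of 15488 genes were.

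Of 21 senescence-associated genes 19 were tested. LPS in control mice, where 10.8% of all genes rose and 9.62% fell, raised 7, among them the secreted inflammatory factors Ccl5, Ccl2, Tnf, Il1a and Cxcl1, and lowered 3 (Igfbp4, Mmp12 and Mmp13). Igfbp4, an IGF-binding protein gene, fell by 2.08 ± 0.25 (edgeR adjusted p = 9.26e-06). In GW mice given vehicle none rose, where 4.45% of all genes did, and the same 3 fell, where 5.07% did, Igfbp4 by 1.46 ± 0.27 (edgeR adjusted p = 0.00185). CBD under LPS raised 1, Igfbp4 (1.24 ± 0.27, edgeR adjusted p = 0.0143), where 1.06% of all genes rose. For CBD under LPS DESeq2 called 4 higher, where it called 519 of 15488 genes higher. Without the 3 libraries rich in neutrophil markers edgeR called 3 higher, where 362 of 16263 genes rose. The count of 7 was 3 without Ctrl-Veh-LPS replicate 1, 4 without Ctrl-Veh-PBS replicate 1 or 4, and 4 without the 3 libraries rich in neutrophil markers. The fall of Mmp13 in GW mice was lost without any GW-Veh-LPS library or GW-Veh-PBS replicate 3 or 4. The call of Igfbp4 with CBD was lost without GW-Veh-LPS replicate 3 or GW-CBD-LPS replicate 3.

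Of 9 immediate early and stress response genes 4 rose with LPS in control mice, where 10.8% of all genes did, among them Nfkbia, the NF-kB inhibitor (1.56 ± 0.31, edgeR adjusted p = 0.0013), and 1 in GW mice given vehicle, where 4.45% did, Dusp1, a MAP kinase phosphatase (1.35 ± 0.37, edgeR adjusted p = 0.0255), a call lost without GW-Veh-LPS replicate 3 or GW-Veh-PBS replicate 3 or 4. No gene of any of these 7 lists passed edgeR for GW against control, for CBD against vehicle under PBS, or for either interaction. For the 38 p53 targets 3 to 11 genes had an unadjusted p under 0.05 in these 5 comparisons. DESeq2 called none of the 38 for GW against control, for CBD under PBS or for the interaction of GW and LPS. For the interaction of CBD and LPS it called 1 of the 38 higher and 2 lower. There it also called 6 of 16 proliferation markers, 2 of 15 G1 genes and 2 of 19 senescence-associated genes higher. The same held for 1 of the 6 other CDK inhibitor and Gadd45 genes. Of 14946 genes DESeq2 called 243 higher and 135 lower for that interaction. For GW against control under LPS it called 1 senescence-associated gene lower, where it called 103 of 13328 genes lower.

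Within groups, the members did not vary as 1 block. The deviations of the 22 libraries from their group means, in log2 CPM, were correlated for all 45 member pairs, with 100000 permutations within groups. Cdkn1a and Gadd45b varied together (Pearson's r = 0.74, permutation p = 0.00019, adjusted p = 0.00855; Spearman's rho = 0.79, permutation p = 0.00025, adjusted p = 0.0112), and r was 0.69 without the 2 libraries farthest from the median of Cdkn1a. The 3 libraries rich in neutrophil markers all lay above their group means for both genes, and their part in this correlation was not tested. Trp53 and Trp53inp1 varied in opposite directions (r = -0.78, permutation p = 0.00073, adjusted p = 0.0164; rho = -0.76, permutation p = 0.00101, adjusted p = 0.0185), with r = -0.80 without the 2 libraries farthest from the median of Trp53. Cdkn1b and Mdm2 passed by rank only (rho = -0.70, permutation p = 0.00123, adjusted p = 0.0185; r = -0.63, permutation p = 0.00554, adjusted p = 0.0831). Trp53 and Cdkn1a were not shown to covary (r = 0.17, permutation p = 0.481, adjusted p = 0.676; rho = 0.11, permutation p = 0.619, adjusted p = 0.708; r = 0.03 without 2 libraries).

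**Figure D4:**
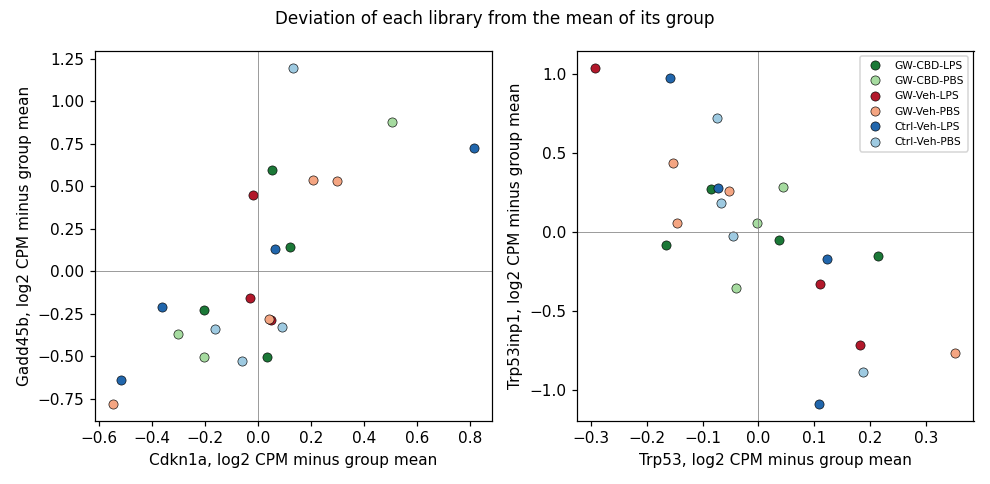
Deviation of each of the 22 libraries from the mean of its group (log2 CPM) for Cdkn1a against Gadd45b on the left and for Trp53 against Trp53inp1 on the right, with colours for the 6 groups. The left points rise together (r = 0.74) and the right points run in opposite directions (r = -0.78).

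The balance of short and long transcripts in a library moved with several members. An index, the mean log2 CPM of 4486 short genes (up to 3276 bases of exon) minus that of 4487 long genes (from 5812 bases), was highest in GW-Veh-PBS replicate 1, at 0.58 above the mean of all libraries, and lowest in GW-CBD-LPS replicate 2, at -0.44. Over the deviations from the group means, and adjusted over the 10 members, Trp53 rose with it (r = 0.71, permutation p = 0.00216, adjusted p = 0.0093; rho = 0.67, permutation p = 0.0035, adjusted p = 0.0117), with r = 0.53 without the 2 libraries farthest from the median of the index. Cdkn1b did so too (r = 0.78, permutation p = 0.00203, adjusted p = 0.0093; rho = 0.73, permutation p = 0.00194, adjusted p = 0.0097; r = 0.69 without 2). Mdm2 ran against it (r = -0.66, permutation p = 0.00279, adjusted p = 0.0093; rho = -0.68, permutation p = 0.00125, adjusted p = 0.0097; r = -0.59 without 2). So did Ccng1 (r = -0.69, permutation p = 0.00974, adjusted p = 0.0244; rho = -0.64, permutation p = 0.00741, adjusted p = 0.0185; r = -0.54 without 2). For Cdkn1a r was 0.53 (permutation p = 0.0379, adjusted p = 0.0758) and rho 0.60 (permutation p = 0.0185, adjusted p = 0.037). The part of this balance in the group differences of these genes, and in the correlations between members given above, was not tested.

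The genes most like Trp53 and Cdkn1a over the 22 libraries were named as a description, by Pearson's r of log2 CPM among 9206 genes averaging 5 CPM or more. For Trp53 they were Klk8 (r = 0.939), Limd2 (0.929), Naxe (0.928), Aif1 (0.927) and Cmtm7 (0.925). For Cdkn1a they were Wfdc17 (r = 0.882), Nhp2 (0.866), Mt1 (0.864), Prelid3b (0.863) and Cd63 (0.854). The libraries share groups and depth, so no p is given.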

How the data were processed

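Polyadenylated RNA of sorted microglia (live CD45mid, CD11b+, CD11a- cells) was sequenced as stranded paired libraries, per the labels' protocols. The authors deposited whole-number counts of reads per gene for 22 libraries, aligned to GRCm38 (mm10), per the submitters' processing notes. Not given in the sources used here were the aligner, the counter, its strand setting and the annotation. Each column was matched to 1 sample by library name, and 27 symbols stored as dates were put right by identifier. Coordinates, exon lengths and gene types come from GENCODE M21, which held 54409 of 54532 identifiers.

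All 22 libraries entered 1 fit in edgeR 4.0.16 (R 4.3.3) with a mean per group, TMM factors, genes kept by filterByExpr, a quasi-likelihood test (two-sided) and Benjamini-Hochberg adjustment over all 16554 genes, threshold 0.05. The SE is the size of the log2 fold change divided by the root of its F value. Log2 CPM used a prior count of 2. Alternatives were RLE factors, no filter, DESeq2 1.42.0, the replicate number as a block, a fit of only the groups compared, each library left out, and, chosen after seeing the data, 3 libraries rich in neutrophil markers left out. The test was also run on simulated counts for some of the comparisons, and the outcome is not reported here.

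Named were the 10 members, up to 3 called genes of smallest p per list and comparison, the 5 genes most like Trp53 and Cdkn1a, and, chosen after their values were seen, the other called genes of lists and the interactions. Members and lists were chosen with earlier results of these data known. Not every gene of this rule is reported here. Ddit3 was left out, since its symbol stood on 2 rows. Intervals and floors cover counting error only. Figures were drawn with matplotlib 3.10.9.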

Additional observations from a re-analysis of the deposited data

Results flagged for a closer look

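Within each group of 4 libraries, a library was singled out where it lay far from the other 3 by Dixon's rule at the 95% level. This held for 5 of 40 gene and group combinations, and chance gives about 1 in 20. Trp53 was highest in GW-Veh-PBS replicate 1, at 163 CPM, and in Ctrl-Veh-PBS replicate 2, at 142 CPM. Without GW-Veh-PBS replicate 1 the fall of Trp53 with LPS in GW mice given vehicle was -0.34 on the log2 scale and no longer passed (edgeR adjusted p = 0.144). Mdm2 was highest in Ctrl-Veh-LPS replicate 3, at 50.7 CPM. Gadd45b was highest in Ctrl-Veh-PBS replicate 3, at 25.2 CPM, the library with the highest neutrophil marker sum. Cdkn2a was highest in Ctrl-Veh-LPS replicate 2, at 0.361 CPM from 13 counts.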

How the results depend on the processing

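The number of members called with LPS in control mice was 1 under RLE factors, no filter, DESeq2, the block and the compared groups alone, 0 with the 3 libraries rich in neutrophil markers left out, and 0 to 2 when 1 library was left out. With LPS in GW mice given vehicle it was 1 under RLE factors and DESeq2, 0 with no filter, with the compared groups alone, with the block and without the 3 libraries, and 0 to 1 when 1 library was left out. The other 7 comparisons stayed at 0 members under every alternative run. Of the single-gene values recomputed under every alternative, 840 kept direction and side of the threshold, 131 lost the call, 1 gained it (Trp53inp1 with LPS in control mice) and 17 changed sign. Gadd45b with LPS in control mice, outside that count, also gained a call, without Ctrl-Veh-PBS replicate 3. All sign changes were in values of Trp53 and Cdkn1a that did not pass. For Trp53, GW against control under PBS was -0.12 without the 3 libraries and -0.10 to 0.11 when 1 library was left out, and LPS in CBD-treated GW mice was -0.03 to 0.09 when 1 was left out. For Cdkn1a, GW against control under LPS was 0.03 with no filter, 0.00 with the compared groups alone, 0.33 without the 3 libraries, 0.12 with the block and -0.15 to 0.34 when 1 library was left out. The interaction of GW and LPS for Cdkn1a was 0.03 without the 3 libraries, and that of CBD and LPS was -0.04 without the 3 libraries, -0.13 with the block and -0.11 to 0.34 when 1 library was left out. Over all genes, calls moved by more than 1.5 times in several comparisons: LPS in GW mice given vehicle gave 1577 calls, and 607 with the compared groups alone and 733 to 2286 when 1 library was left out. LPS in CBD-treated GW mice gave 69, and 342 with DESeq2, 155 without the 3 libraries, 0 with the block and 0 to 260 when 1 was left out. CBD under LPS gave 382, and 883 with DESeq2, 672 without the 3 libraries, 0 with the compared groups alone and 97 to 532 when 1 was left out. The interaction of CBD and LPS gave 3, and 378 with DESeq2, 19 with no filter, 5 without the 3 libraries, 0 with the block or the compared groups alone and 0 to 211 when 1 was left out. GW against control under LPS gave 0, and 135 with DESeq2, 5 with no filter and 0 to 75 when 1 was left out. The interaction of GW and LPS gave 0, and 57 with DESeq2 and 0 to 13 when 1 was left out. CBD under PBS gave 0, and 1 with the compared groups alone. Where an arm was left with 2 libraries the spread was pooled over all groups. The cause of these changes was not tested. Depth limits Cdkn2a and Phlda3 most.

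The labels give libraries of different groups the same replicate numbers, but nothing says that these pair the samples. Deviations from the group means of same-numbered libraries correlated between -0.285 and 0.315, and in no comparison did every pair exceed 0.1. With the replicate number as a block the call of Trp53 with LPS in GW mice given vehicle was lost (-0.42, edgeR adjusted p = 0.0914), and Cdkn1a with LPS in control mice stayed called (0.87, edgeR adjusted p = 0.0114). The block gave 3211 calls over all genes with LPS in control mice against 3378 without it, 1282 against 1577 in GW mice given vehicle, 0 against 69 in CBD-treated GW mice, and 269 against 382 for CBD under LPS. Among the other genes recomputed with it, the block also ended the calls of Ccnb2 for LPS in control mice, of Mcm2, Mcm6 and Dusp1 for LPS in GW mice given vehicle, of Mcm7, Pcna, Tk1 and Ccne1 for LPS in CBD-treated GW mice, and of Ccne1 and Cdk1 for CBD under LPS.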
